A study of Mus musculus with 12 samples.

Results

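Npas4, Arnt and Arnt2 were followed through RNA sequencing of isolated mouse islets whose electrical activity had been altered. The 3 genes were taken by their symbols from each of the 8 deposited tables, out of 24503 genes in all. There were 12 libraries in 6 groups of 2 mice, all of the C57BL/6 strain, from islets with β, α and δ cells as their labelled cell types. Wild-type islets were held for 4 h at 11 mM glucose with FK506 (11G+FK), with diazoxide (11G+D) or with neither (11G), or were kept at low glucose (2G). FK506 inhibits the calcium-dependent phosphatase calcineurin, and diazoxide opens ATP-sensitive potassium channels and so hyperpolarises the membrane. Islets of a β-cell-specific channelrhodopsin-2 line, which carries a cation channel opened by light, received light in on and off cycles for 40 min (ChR2(+)LIGHT) or no light (ChR2(-)LIGHT). The labels call the 2G and the ChR2(-)LIGHT islets untreated. They give no concentration or time for 2G, no glucose for the ChR2 islets, no promoter for the channel and no age. Glucose and time in culture therefore cannot be told apart in comparisons with 2G. The same mouse numbers recur in every wild-type group and in both ChR2 groups, so each comparison was made within mice.

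NPAS4 is a transcription factor of the basic helix-loop-helix PAS (bHLH-PAS) family. Its gene is switched on by membrane depolarisation and calcium entry, as described in neurons and in pancreatic β cells. It binds DNA as a heterodimer with ARNT or ARNT2, class II members of the same family. ARNT is also the partner of the hypoxia-inducible factors and of the aryl hydrocarbon receptor, while ARNT2 is best known from neurons. Levels are given as FPKM (fragments scaled to gene length and to the total of the library), which allows genes to be compared within a library, and as CPM (reads scaled to library size with TMM factors), on which changes are based.

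In the files, Npas4 (ENSMUSG00000045903) lies on the minus strand at chr19:4984355-4989971, Arnt (ENSMUSG00000015522) on the plus strand at chr3:95434388-95497240, and Arnt2 (ENSMUSG00000015709) on the minus strand at chr7:84246281-84409959. The build was not stated in those sources. The Arnt interval is that of GENCODE M21 (GRCm38), while the end of Npas4 differs from it by 345 bases and that of Arnt2 by 217 bases. GENCODE M21 places a processed pseudogene, Gm42672, within Arnt, and an snRNA gene, Gm25790, and an antisense gene, Gm30873, within Arnt2. Whether their reads were counted apart was not stated either. The promoters are shown because the changes of the 3 genes differed widely in size, so that their start regions can be compared for elements tied to calcium and cAMP signalling. They are RefSeq sequences of GRCm38.p6, each 250 bases before to 50 bases after the gene's start, read 5′ to 3′ along the gene. The windows are chr19:4989922-4990221 on the minus strand for Npas4, chr3:95434140-95434439 on the plus strand for Arnt and chr7:84409989-84410288 on the minus strand for Arnt2. Capitals mark TGACG or its reverse complement CGTCA, the core of the cAMP response element.
Npas4: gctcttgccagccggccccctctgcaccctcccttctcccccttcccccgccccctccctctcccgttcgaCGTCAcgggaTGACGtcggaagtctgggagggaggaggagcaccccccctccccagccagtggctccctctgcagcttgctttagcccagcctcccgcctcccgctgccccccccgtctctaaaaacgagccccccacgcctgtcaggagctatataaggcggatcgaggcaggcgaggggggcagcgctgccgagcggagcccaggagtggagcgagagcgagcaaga
Arnt: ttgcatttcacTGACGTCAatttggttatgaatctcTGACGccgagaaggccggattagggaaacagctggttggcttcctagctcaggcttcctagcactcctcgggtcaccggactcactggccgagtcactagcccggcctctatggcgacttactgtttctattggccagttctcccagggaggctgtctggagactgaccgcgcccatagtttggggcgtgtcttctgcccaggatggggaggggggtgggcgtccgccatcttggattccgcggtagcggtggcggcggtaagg
Arnt2: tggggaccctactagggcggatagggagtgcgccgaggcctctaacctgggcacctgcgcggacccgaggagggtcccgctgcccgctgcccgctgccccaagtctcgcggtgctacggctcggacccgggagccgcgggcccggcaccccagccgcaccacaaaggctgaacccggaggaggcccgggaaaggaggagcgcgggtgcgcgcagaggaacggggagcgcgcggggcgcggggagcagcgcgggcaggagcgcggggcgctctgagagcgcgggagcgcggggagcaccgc

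The Npas4 window held 2 TGACG cores, on opposite strands and starting 179 and 169 bases before the start. The Arnt window held the full palindrome TGACGTCA, 239 bases before the start, and a further core 214 bases before it. The Arnt2 window held neither. On both strands, TGACG stood in 20.8% of 32851 promoter windows of the same length, at least 2 cores in 5.01%, and TGACGTCA in 1.79%. The full element contains a core on each strand, so these counts overlap. None of the 3 windows held ACGTG, a core bound by some ARNT dimers (19.6% of windows), or TCGTG, described for NPAS4 dimers (16.0%). They also lacked the E-box CACGTG (7.15%), the exact letters TATAAA, searched on the gene's strand (8.32%), and a CArG box (1.63%). Variants of TATAAA and other cores of ARNT dimers were not searched, and the Npas4 window does hold the letters TATATAAG. The share of G and C was 69.3% in the Npas4 window, 59.3% in that of Arnt and 76.7% in that of Arnt2. A match describes these letters and is no evidence of binding.

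Libraries held 15196061 to 22892255 reads counted to genes. The 5 β-cell markers Ins1, Ins2, Mafa, Nkx6-1 and Slc2a2 took 6.20% to 10.2% of counts in every library, and the defining marker absent or at 0 in at least 1 library was the macrophage gene Adgre1. The lowest count of a member was 25 reads for Npas4 at 2G in mouse 1 (exact Poisson 95% interval 16.2 to 36.9 reads, counting error only). In whole islets, fewer expressing cells and less RNA per expressing cell cannot be told apart.

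Npas4 was scarce at 2G, without light and under diazoxide, and abundant at 11 mM glucose. In mice 1 and 2, it had 7.82 and 13 FPKM at 11G+FK, 0.741 and 0.598 at 11G+D, 21.9 and 18.9 at 11G, and 0.397 and 0.533 at 2G. It had 5.17 and 1.96 FPKM at ChR2(+)LIGHT, against 0.623 and 0.514 at ChR2(-)LIGHT. The levels thus fell into a low set of 3 groups below 1 FPKM and a high set of 3 groups, with no overlap between the sets. Among genes with an FPKM above 0, Npas4 stood in the top 15.2% and 19.3% of the 11G libraries, but only in the top 73.4% and 71.2% of the 2G libraries.
In group means of CPM, the order of Npas4 was 11G (68.7 ± 12.1), 11G+FK (33.3 ± 10.9), ChR2(+)LIGHT (11.6 ± 7.54), 11G+D (2.21 ± 0.287), ChR2(-)LIGHT (1.89 ± 0.314) and 2G (1.51 ± 0.324; SD, n = 2 each). Wild-type and ChR2 libraries were scaled separately, so this order across genotypes is a description. The 11G+D and ChR2(-)LIGHT libraries overlapped, as did the ChR2(-)LIGHT and 2G libraries.

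Arnt was expressed in every library at 18.7 to 39.4 FPKM. It had 27.7 and 20.5 FPKM at 11G+FK, 28.4 and 25.1 at 11G+D, 39.4 and 29.7 at 11G, and 23.8 and 18.9 at 2G. In ChR2 islets it had 20.9 and 20.4 FPKM under light and 18.7 and 26.8 without. Both 11G libraries lay above all other libraries. In CPM, 11G came first (154 ± 41.7), followed by 11G+D (117 ± 7.54), 11G+FK (102 ± 24.3), ChR2(-)LIGHT (99.0 ± 21.7), 2G (91.4 ± 14.2) and ChR2(+)LIGHT (88.5 ± 3.16; SD, n = 2 each). The SDs of all neighbours in this order overlapped.
Arnt2 was the scarcer partner, with 6.22 and 3.66 FPKM at 11G+FK, 5.86 and 4.87 at 11G+D, 7.51 and 5.36 at 11G, and 9.07 and 3.60 at 2G. In ChR2 islets it had 5.32 and 6.65 FPKM under light and 7.0 and 9.55 without. At 2G the mice lay further apart than the groups did. The CPM order was ChR2(-)LIGHT (49.9 ± 9.31), 11G (39.8 ± 12.2), 2G (37.5 ± 22.6), ChR2(+)LIGHT (35.5 ± 5.02), 11G+D (32.4 ± 3.54) and 11G+FK (29.1 ± 11.4; SD, n = 2 each), and the SDs of all neighbours in it overlapped.

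**Figure D1:**
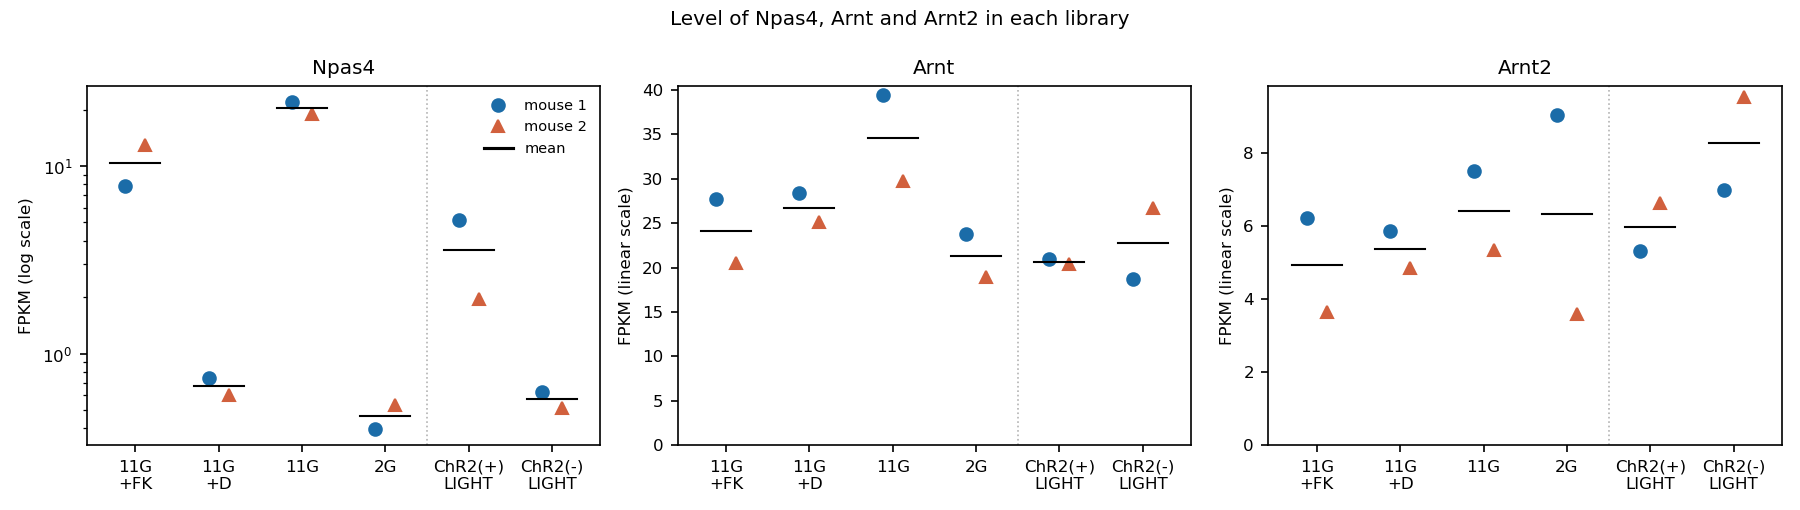
FPKM of Npas4 (log axis), Arnt and Arnt2 (linear axes from 0) in each of the 12 libraries, by group, with mouse 1 as circles, mouse 2 as triangles and the group mean as a line. Npas4 ranges from 0.397 to 21.9 FPKM, while Arnt stays between 18.7 and 39.4 FPKM and Arnt2 between 3.60 and 9.55 FPKM.

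At 11 mM glucose, Npas4 rose 45.4-fold over 2G. It had 77.3 and 60.1 CPM at 11G in mice 1 and 2, against 1.28 and 1.74 CPM at 2G, so the groups lay far apart. The log2 change was 5.51 ± 0.31 (SE; 95% interval 4.82 to 6.19; adjusted p = 3.65e-05, edgeR), with 5.86 in mouse 1 and 5.07 in mouse 2. It ranked 2 by size of increase among the 16087 genes tested, and also in each mouse alone. Of those genes, 4.84% were called in either direction, 3.13% as higher and 1.71% as lower.
Arnt rose 1.67-fold, with 184 and 125 CPM at 11G against 101 and 81.4 CPM at 2G. Its log2 change was 0.74 ± 0.15 (95% interval 0.40 to 1.08; adjusted p = 0.0265, edgeR), with 0.86 and 0.62 in the 2 mice. The call rested on the pairing of mice and on all libraries. Without the mouse as a block the change was 0.76 (adjusted p = 0.240, the highest of 6 alternatives, of which the lowest was 0.00216), and leaving out any of the 4 libraries gave 0.62 to 0.86 with adjusted p-values of 0.0536 to 0.391. Arnt2 had 48.5 and 31.2 CPM at 11G against 53.5 and 21.5 CPM at 2G, so the 11G libraries lay between those of 2G. Its log2 change was 0.17 ± 0.23 (95% interval -0.34 to 0.67; adjusted p = 0.705, edgeR), with opposite signs in the 2 mice (-0.14 and 0.54).

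With diazoxide at 11 mM glucose, Npas4 was close to its 2G level. At 11G+D it had 2.41 and 2.01 CPM, against 77.3 and 60.1 CPM at 11G. The log2 change was -4.95 ± 0.30 (95% interval -5.62 to -4.29; adjusted p = 0.000104, edgeR), with -4.97 and -4.87 in the 2 mice, and it ranked 4 by size of decrease among 16087 genes. In this comparison 3.79% of genes were called, 1.33% as higher and 2.46% as lower. Of the rise in CPM of 11G over 2G, 1.49% was left at 11G+D in mouse 1 and 0.458% in mouse 2. Set against 2G itself, Npas4 at 11G+D changed by 0.55 ± 0.34 on the log2 scale (95% interval -0.21 to 1.31; adjusted p = 0.372, edgeR; 5.22% of genes called, 2.92% as higher and 2.31% as lower), so the interval covers both no difference and a rise.
Arnt had 122 and 111 CPM at 11G+D, against 184 and 125 CPM at 11G. Both diazoxide libraries were lower than both 11G libraries, but the log2 change of -0.38 ± 0.15 did not pass the threshold (95% interval -0.71 to -0.04; adjusted p = 0.208, edgeR). Against 2G, Arnt at 11G+D differed by 0.36 ± 0.15 (adjusted p = 0.190). Arnt2 had 34.9 and 29.9 CPM at 11G+D against 48.5 and 31.2 CPM at 11G, a log2 change of -0.25 ± 0.23 (adjusted p = 0.615), and the change against 2G was -0.08 ± 0.23 (adjusted p = 0.859, all edgeR).

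With FK506, Npas4 kept part of its rise at 11 mM glucose, and how much differed between the mice. Npas4 had 25.6 and 41.0 CPM at 11G+FK, against 77.3 and 60.1 CPM at 11G. Both FK506 libraries were lower than both 11G libraries, and 32.0% of the rise over 2G was left in mouse 1 (24.3 of 76.0 CPM) and 67.3% in mouse 2 (39.3 of 58.4 CPM). The log2 change of -1.07 ± 0.24 was not called (95% interval -1.60 to -0.53; adjusted p = 0.149, edgeR), with -1.59 and -0.55 in the 2 mice, in a comparison with few calls (0.23% of genes, 0.0124% as higher and 0.218% as lower). The same change passed with DESeq2 (-1.07; adjusted p = 0.00604) and in edgeR without a filter on low counts (-1.07; adjusted p = 0.00251), while over the 6 alternatives that keep all libraries the adjusted p ran from 0.00251 to 0.746.
Against 2G, Npas4 at 11G+FK was 21.7-fold higher, with a log2 change of 4.44 ± 0.30 (adjusted p = 0.000224, edgeR; 2.06% of genes called, 1.47% as higher and 0.591% as lower). Against 11G+D it was 14.8-fold higher, with a log2 change of 3.89 ± 0.29 (adjusted p = 0.000900, edgeR; 1.17% of genes called, 0.783% as higher and 0.385% as lower). It ranked 5 by size of increase among 16087 genes in each of these comparisons, which share the 11G+FK libraries.
Arnt had 120 and 85.2 CPM at 11G+FK, against 184 and 125 CPM at 11G. The log2 change was -0.59 ± 0.15, at close to the same size in both mice (-0.62 and -0.55), but the adjusted p was 0.199 (95% interval -0.92 to -0.25; edgeR). Arnt2 had 37.2 and 21.1 CPM at 11G+FK against 48.5 and 31.2 CPM at 11G, a log2 change of -0.47 ± 0.23 (95% interval -0.98 to 0.03; adjusted p = 0.485, edgeR). Against 2G, the changes at 11G+FK were 0.15 ± 0.15 for Arnt (adjusted p = 0.610) and -0.31 ± 0.23 for Arnt2 (adjusted p = 0.486). Against 11G+D they were -0.21 ± 0.15 for Arnt (adjusted p = 0.525) and -0.22 ± 0.23 for Arnt2 (adjusted p = 0.672, all edgeR). The comparisons with 11G+FK, 11G+D and 2G use the same 11G libraries, so their values for the 3 genes are not independent of each other.

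In ChR2 islets given light for 40 min, Npas4 rose 5.56-fold. It had 17.0 and 6.31 CPM at ChR2(+)LIGHT in mice 1 and 2, against 2.11 and 1.67 CPM at ChR2(-)LIGHT. The log2 change was 2.48 ± 0.35 (95% interval 1.73 to 3.22; adjusted p = 0.00154, edgeR), with 2.98 in mouse 1 and 1.89 in mouse 2, and it ranked 17 by size of increase among 15171 genes, but 19 in mouse 1 and 170 in mouse 2 alone. In this comparison 0.844% of genes were called, 0.6% as higher and 0.244% as lower. The fit had 1 residual degree of freedom. Without the mouse as a block the change was 2.63 (adjusted p = 0.998, the highest of 5 alternatives, of which the lowest was 1.52e-11), and leaving out any of the 4 ChR2 libraries, within a fit of all 12, gave 1.90 to 2.98 with adjusted p-values of 0.133 to 0.144.
The effect of light on Npas4 was smaller than that of 11G over 2G by 2.99 ± 0.47 on the log2 scale, given as a signed difference of -2.99 (95% interval -4.02 to -1.97; adjusted p = 0.0229, edgeR, 12 libraries), while 0.591% of 16418 genes were called for this difference, 0.359% as lower. Genotype, stimulus and duration all differ between the 2 comparisons and cannot be told apart. The call was lost without the block (-2.84; adjusted p = 0.262, the highest of 5 alternatives, of which the lowest was 3.20e-08), without the 11G library of mouse 1 (-2.64), and without either ChR2 library of mouse 2 (-2.52 each).
Neither partner was called under light. Arnt had 90.7 and 86.3 CPM under light against 83.6 and 114 CPM without, a log2 change of -0.15 ± 0.16 (95% interval -0.49 to 0.20; adjusted p = 0.826, edgeR) whose sign differed between the mice (0.12 and -0.41). Arnt2 had 31.9 and 39.0 CPM under light, both below the 43.3 and 56.5 CPM without light. Its log2 change was -0.49 ± 0.18 (95% interval -0.86 to -0.11; adjusted p = 0.279, edgeR), with -0.44 and -0.53 in the 2 mice. The difference between the light and the 11G effects was -0.86 ± 0.23 for Arnt (adjusted p = 0.125) and -0.63 ± 0.30 for Arnt2 (adjusted p = 0.361, edgeR).

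**Figure D2:**
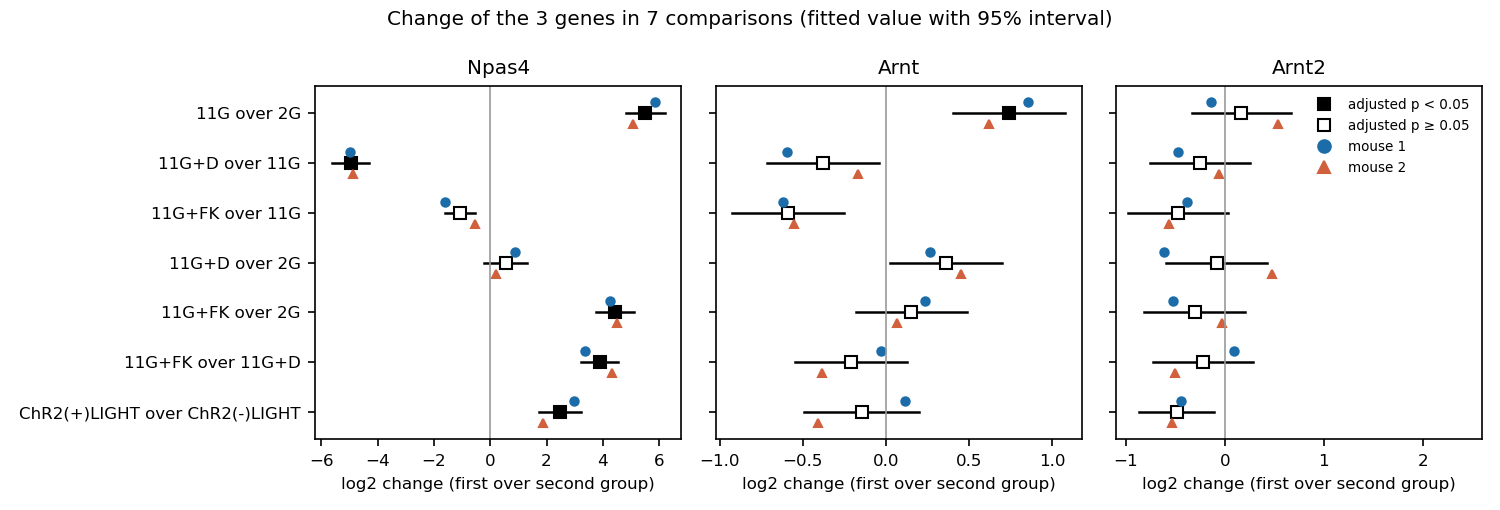
Log2 change of Npas4, Arnt and Arnt2 in the 7 comparisons, as the fitted value (square) with its 95% interval, filled where the adjusted p was under 0.05, and the value in mouse 1 (circle) and mouse 2 (triangle). Scales differ between panels: Npas4 spans -4.95 to 5.51, while the fitted values of Arnt lie between -0.59 and 0.74 and those of Arnt2 between -0.49 and 0.17.

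The authors' deposited tables compare the libraries of each mouse on their own. For Npas4, the authors' deposited table gives 11G over 2G as 5.90 on the log2 scale in mouse 1 (deposited adjusted p = 8.81e-23). For mouse 2 the authors' deposited table gives 2G over 11G, that is the other way round, as -5.11 (2.34e-18). Light over no light stands in the authors' deposited tables as 3.0 in mouse 1 (1.15e-05) and 1.91 in mouse 2 (0.0480). For FK506, the authors' deposited tables give 11G+FK over 11G as -1.58 in mouse 1 (0.155) and 11G over 11G+FK as 0.57 in mouse 2 (1.0). These are values of 1 library against 1 library, with no replicate check.

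Relative to its possible partners, Npas4 was a minor transcript in the low groups and a major transcript at 11G. Its FPKM was 23.1% and 53.9% of the summed FPKM of Arnt and Arnt2 at 11G+FK in mice 1 and 2, 2.16% and 1.99% at 11G+D, 46.6% and 53.8% at 11G, and 1.21% and 2.37% at 2G. It was 19.7% and 7.27% under light and 2.42% and 1.42% without. Npas4 thus stayed below the sum of its partners in all 12 libraries, and above Arnt2 alone in both 11G and both 11G+FK libraries.
Arnt exceeded Arnt2 in every library, with a median FPKM ratio of 4.65. The ratio of Arnt to Arnt2 FPKM was 4.45 and 5.60 at 11G+FK, 4.84 and 5.15 at 11G+D, 5.25 and 5.55 at 11G, 2.62 and 5.24 at 2G, 3.93 and 3.06 under light and 2.67 and 2.80 without. The 2G library of mouse 1 stood apart from the other wild-type libraries, and the ChR2 libraries were all below 4.

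**Figure D3:**
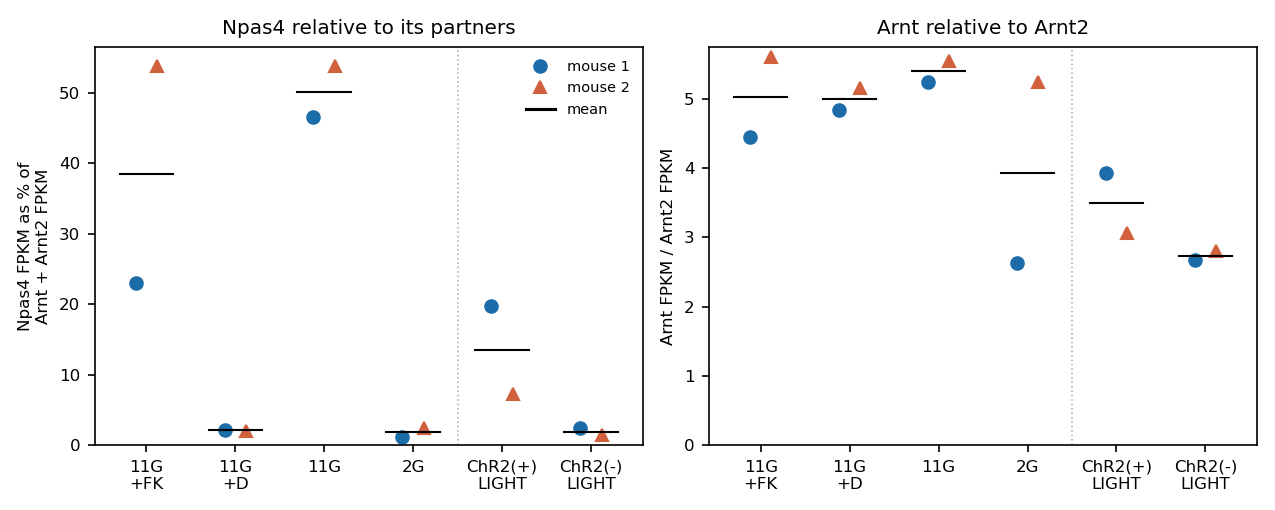
Left, Npas4 FPKM as a percentage of the summed FPKM of Arnt and Arnt2 in each library; right, the ratio of Arnt to Arnt2 FPKM; circles are mouse 1, triangles mouse 2 and lines group means. Npas4 reaches 46.6% and 53.8% of its partners at 11G and lies between 1.21% and 2.42% in the 2G, 11G+D and ChR2(-)LIGHT libraries.

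Acinar markers were called lower in the comparisons with 2G, and were also lower under light, without a call. The 6 genes Cpa1, Prss2, Cela2a, Ctrb1, Pnlip and Cel took 0.0044% and 0.0325% of counts at 11G, against 0.0405% and 0.0764% at 2G, and 6 of 6 were called lower at 11G (1.71% of genes called lower; median -2.10). Against 2G, 6 of 6 were also called lower at 11G+FK (0.591% of genes; median -1.97) and 3 of 6 at 11G+D (2.31% of genes; median -1.58), with 0.00577% and 0.0308% of counts at 11G+FK and 0.0127% and 0.0253% at 11G+D. They took 0.0305% and 0.0031% under light against 0.0368% and 0.0226% without, where 0 of 6 were called (median -1.46). Duct markers had 1 of 4 called lower in each of the comparisons of 11G, 11G+D and 11G+FK with 2G. Under light, 1 of 5 β-cell markers was called lower (0.244% of genes; median -0.38) and 1 of 4 endothelial markers higher (0.6% of genes; median 0.50). The β-cell markers took 9.12% and 9.80% of counts under light, against 10.2% and 7.96% without, so their share fell in mouse 1 and rose in mouse 2. The endothelial markers took 0.0797% and 0.101% of counts under light, against 0.0626% and 0.0667% without. The α-cell markers took 1.48% and 0.312% of counts at 2G and 1.19% and 0.682% at 11G in mice 1 and 2. They took 1.06% and 0.692% at 11G+D and 0.940% and 0.286% at 11G+FK. From 2G to 11G, their share and Arnt2 CPM both fell in mouse 1 and rose in mouse 2. Under light their share was 0.205% and 0.406%, against 0.174% and 0.439% without, while Arnt2 fell in both mice. Of 4 α-cell markers, 1 was called lower at 11G over 2G and at 11G+FK over 2G. The part of these markers in the changes of Npas4, Arnt and Arnt2 was not tested.

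Among the relatives of the 3 genes, Npas2 was called in the same direction as Npas4 at 11G over 2G and at 11G+D over 11G. NPAS2 is a bHLH-PAS factor of the circadian clock that pairs with ARNTL. It had 9.10 and 6.98 FPKM at 11G, against 1.87 and 1.54 FPKM at 2G, a log2 change of 2.29 ± 0.23 (adjusted p = 0.00133, edgeR). At 11G+D it had 2.15 and 2.49 FPKM, a log2 change from 11G of -1.79 ± 0.23 (adjusted p = 0.00378, edgeR). It was called the same way in 4 of 4 fits that leave out a library for 11G over 2G and in 3 of 4 for 11G+D over 11G, all but the fit without 11G mouse 1 (-1.45). Under light Npas2 had 2.2 and 3.53 FPKM, against 2.22 and 4.21 FPKM without, so the groups overlapped.
In the list of 19 further bHLH-PAS genes and PAS coactivators, 16 passed the filter on low counts, and Hif3a, Ahrr and Sim2 did not. Npas2 was the 1 gene of the 16 called higher by edgeR at 11G over 2G (3.13% of all genes), where the list's median was 0.03 and that of all genes -0.01. Of the 16, 5 had an unadjusted p under 0.05 there, against 3717 of all 16087 genes. DESeq2 called 4 of the 16 (Npas2, Ahr, Arntl2 and Per2), against 1315 genes in all. Against 11G, 3 of 16 were called lower at 11G+D (2.46% of all genes): Npas2 and the period genes Per1 (-1.05 ± 0.16) and Per2 (-0.94 ± 0.20), repressors in the clock. The 11G+D calls of Per1 and Per2 held in 2 and 1 of 4 fits that leave out a library. At 11G+FK over 2G, 2 of 16 were called higher (1.47% of all genes): Npas2 (1.46 ± 0.23) and Per3 (0.92 ± 0.17), in 0 and 1 of 4 such fits. Per1 was the 1 gene of 16 called lower at 11G+D over 2G (-0.65 ± 0.16; 0 of 4 fits; 2.31% of all genes). Per2 was the 1 gene of 16 called higher at 11G+FK over 11G+D (1.01 ± 0.20; 1 of 4 fits; 0.783% of all genes).
At 11G+FK over 11G, edgeR called 0 of 16 (0.23% of all genes). There, 4 had an unadjusted p under 0.05, against 1735 of 16087 genes, and DESeq2 called 2, against 234 genes in all. Under light, edgeR also called 0 of 16 (0.844% of all genes). There, 2 had an unadjusted p under 0.05, against 1693 of 15171 genes, and DESeq2 called 0, against 86 genes in all. Hif1a, the oxygen-regulated partner of ARNT, had 33.6 and 36.7 FPKM at 11G against 41.7 and 45.6 FPKM at 2G, a log2 change of -0.27 ± 0.14 (adjusted p = 0.297, edgeR). Ahr, the aryl hydrocarbon receptor, had 2.84 and 4.36 FPKM at 11G against 5.35 and 7.80 FPKM at 2G, a log2 change of -0.84 ± 0.28 that was called by DESeq2 and not by edgeR (edgeR adjusted p = 0.116).

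**Figure D4:**
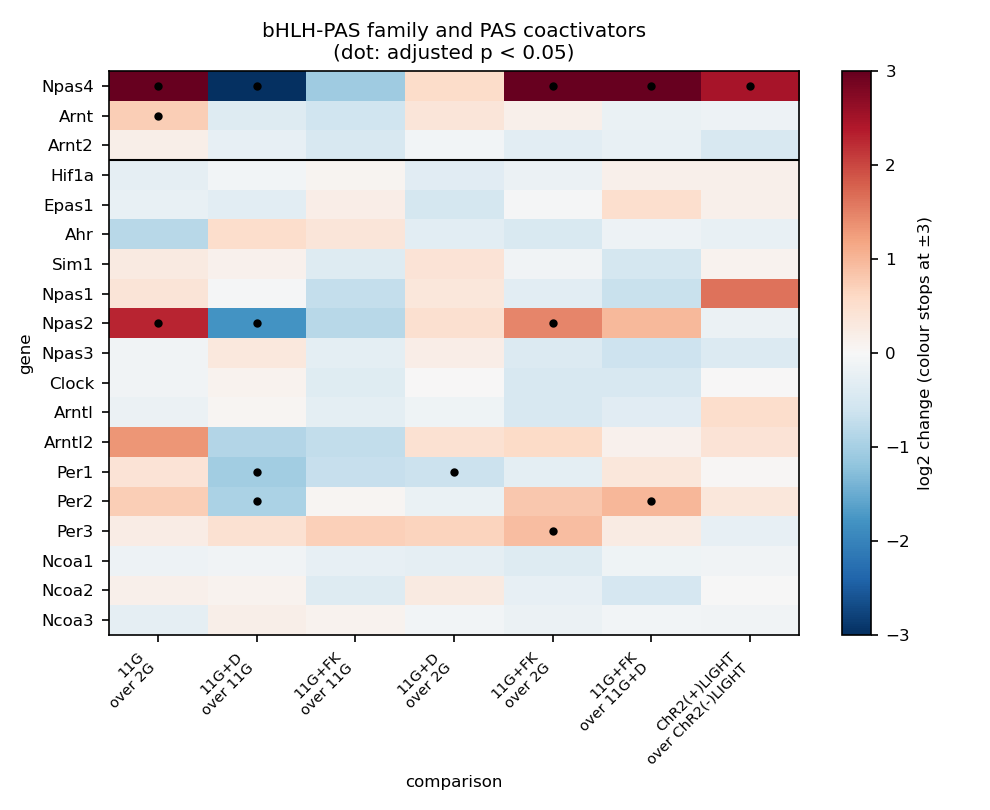
Log2 change (first over second group) of the 3 genes and 16 further bHLH-PAS genes and PAS coactivators in the 7 comparisons, with a dot where the adjusted p was under 0.05; colour stops at 3 in either direction. Npas4 carries 5 dots, Npas2 3 and Arnt 1.

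Among genes described as NPAS4 targets in mouse neurons or β cells, Rgs2 was called in 3 comparisons. Rgs2, a regulator of G-protein signalling, had 55.4 and 28.5 FPKM at 11G, against 5.76 and 5.32 FPKM at 2G, a log2 change of 2.94 ± 0.35 (adjusted p = 0.00269, edgeR). It had 3.72 and 6.08 FPKM at 11G+D, a log2 change from 11G of -3.06 ± 0.36 (adjusted p = 0.00263, edgeR). At 11G+FK it had 7.81 and 5.26 FPKM, a log2 change from 11G of -2.74 ± 0.35 (adjusted p = 0.0139, edgeR), in the same libraries in which Npas4 kept 32.0% and 67.3% of its rise. This last call held in 1 of 4 fits that leave out a library, that without 11G mouse 2, and was lost without the mouse as a block (-2.76; adjusted p = 0.167). The other calls of Rgs2 held in 4 of 4 fits and without the block.
Of 11 such genes, 9 were tested in wild type. Rgs2 was the 1 gene of 9 called higher by edgeR at 11G over 2G, against 3.13% of all genes (median of the 9, 0.57; of all genes, -0.01). In that comparison, 5 of the 9 had an unadjusted p under 0.05, against 3717 of 16087 genes. DESeq2 called Rgs2 and Csrnp1, against 1315 genes in all. At 11G+D over 11G, Rgs2 and Csrnp1 (-1.12 ± 0.26; called in 1 of 4 fits that leave out a library, and -0.68 without 11G mouse 1) were called lower, 2 of 9 against 2.46% of all genes, and the median was -0.43. At 11G+FK over 11G, 1 of 9 was called lower by edgeR, against 0.218% of all genes. In that comparison, 5 of the 9 had an unadjusted p under 0.05, against 1735 of 16087 genes, with Plk2 among them higher (0.37). DESeq2 called Rgs2 and Osgin2, against 234 genes in all. Bdnf, the neurotrophin gene and a much-studied NPAS4 target in neurons, had 0.384 and 0.648 FPKM at 11G+D against 1.57 and 1.16 FPKM at 11G (log2 change -1.43 ± 0.37; adjusted p = 0.0648, edgeR), and was called by DESeq2.
Under light, 2 of 10 tested targets were called, both higher, against 0.6% of all genes. The 10 include Syt10, which had reads in ChR2 mouse 1 alone and is not read as an NPAS4 response. Csrnp1, a nuclear factor induced early by many stimuli, had 27.2 and 31.7 FPKM under light against 14.2 and 9.05 FPKM without (log2 change 1.35 ± 0.20; adjusted p = 0.00243, edgeR). Plk2, a polo-like kinase, had 36.6 and 48.1 FPKM under light against 22.4 and 19.4 FPKM without (0.98 ± 0.17; adjusted p = 0.00903, edgeR). Without either ChR2 library of mouse 2 their changes were 0.88 and 0.64, and neither was called in any of the 4 fits that leave out a library or without the mouse as a block. Rgs2 had 7.15 and 10.7 FPKM under light against 6.38 and 7.74 FPKM without, and was not among the calls.

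Targets of ARNT with its other partners were followed as well. Of 14 targets of hypoxia-inducible factors with ARNT, edgeR called 0 at 11G over 2G, against 4.84% of all genes. There, 5 had an unadjusted p under 0.05, against 3717 of 16087 genes. DESeq2 called 2 of the 14 (Vegfa and Car9), against 1315 genes in all. Pdk1, which restrains entry of pyruvate into the mitochondrial cycle, had 14.0 and 11.5 FPKM at 11G+D against 5.89 and 6.55 FPKM at 11G (log2 change 1.02 ± 0.16; adjusted p = 0.00780, edgeR). It was also higher at 11G+D over 2G (1.23 ± 0.16) and lower at 11G+FK over 11G+D (-0.87 ± 0.15). In each of these comparisons Pdk1 was the 1 call of 14, against 1.33% and 2.92% of all genes higher and 0.385% lower. The list medians were 0.04, -0.28 and 0.16. At 11G+D over 11G, Vegfa (-0.58), Bnip3 (-0.84) and Slc2a1 (-0.55) were lower with an unadjusted p under 0.05 (edgeR). DESeq2 called Vegfa and Pdk1 there. Ankrd37 was called higher at 11G+FK over 2G (2.19 ± 0.29; 1 of 14, against 1.47% of all genes) and Ldha, lactate dehydrogenase A, under light (1.22 ± 0.18). With a library left out, Pdk1 was called in 2, 4 and 0 of 4 fits in its 3 comparisons, Ankrd37 in 2 and Ldha in 0. Ldha was the 1 call of 14 under light (0.6% of all genes higher). There, 10 of the 14 had an unadjusted p under 0.05, against 1693 of 15171 genes. The median was 0.56, against 0.01 for all genes. Of 4 targets of the aryl hydrocarbon receptor with ARNT, the cytochrome P450 gene Cyp1a1 was called lower at 11G+D over 11G (-1.91 ± 0.44; 2.46% of all genes lower; not called by DESeq2). It was also called lower at 11G+D over 2G (-2.11 ± 0.44; 2.31% of all genes lower). At 11G+FK over 11G+D it was called higher (3.0 ± 0.46; 0.783% of all genes higher). Its levels differed widely between mice, with 37.8 and 6.15 FPKM at 2G. These calls held in 0, 1 and 2 of 4 fits that leave out a library, with -1.21 without 2G mouse 1 and 1.98 without 11G+FK mouse 2. Cyp1b1 was lower at 11G+D over 2G (-2.23 ± 0.48; 2 of 4 such fits), so 2 of the 4 targets were called there. Tiparp, a repressor of the receptor, was higher under light (1.17 ± 0.20; 0 of 4 fits), the 1 target of 4 called, against 0.6% of all genes.
Other transcription factors induced by activity were also called. Of 14 tested in wild type, Nr4a1, Nr4a2, Fosb, Crem and Fosl2 were called higher at 11G over 2G, 5 of 14 against 3.13% of all genes, with a list median of 1.08. At 11G+D over 11G, 6 were called lower (the same 5 and Fos; 2.46% of all genes; median -1.14). At 11G+FK over 11G, Nr4a2 (-2.36 ± 0.23), Nr4a1 (-2.23 ± 0.29) and Crem (-1.39 ± 0.20) were called lower (0.218% of all genes). Under light, Fosb, Egr1, Fos, Nr4a1, Junb and Atf3 were called higher among 13 tested, against 0.6% of all genes (median 1.11). With a library left out, Nr4a1 and Nr4a2 were called in 4 of 4 fits at 11G over 2G and at 11G+D over 11G, but in 1 of 4 at 11G+FK over 11G, and Crem in 3, 3 and 0 of 4. Fosl2 had a log2 change of 1.11 at 11G over 2G, and of 0.66 without 2G mouse 1. Without the mouse as a block, 5 of the 7 calls over all lists held at 11G over 2G (all but Fosb and Fosl2) and 6 of 13 at 11G+D over 11G (Npas2, Rgs2, Nr4a1, Nr4a2, Crem and Fosl2). None of the list calls in the other 5 comparisons held without it, those at 11G+FK over 11G and under light included. Under light, Egr1 and Fosb were those called in 2 of 4 fits without a library. Dropping either library of a mouse leaves the light effect to the other mouse, so these 4 fits are 2 pairs and not 4 separate checks. Without either ChR2 library of mouse 2, the changes were 1.50 for Egr1, 0.61 for Junb and 1.92 for Fosb, against 2.38, 0.97 and 3.60 with all libraries. That of Fosb was up to 5.72 without a library of mouse 1.

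Across the 12 libraries, the genes whose log2 CPM followed Npas4 most closely were Klhdc8a (Pearson r = 0.932), Socs3 (0.930), Il27 (0.897), Usp35 (0.891), Aff1 (0.888), Pitpnm1 (0.887), Nr4a1 (0.882) and Unc13a (0.882), out of 11719 genes averaging 1 FPKM or more. The libraries come from 4 mice and fall into a high and a low set for Npas4, so these values describe likeness only. Of the 8 genes, 5 were also among the 8 by Spearman's rho and 2 among the 8 over the wild-type libraries alone. Klhdc8a had 3.91 and 2.47 FPKM at 11G+FK, 0.779 and 0.661 at 11G+D, 4.55 and 3.71 at 11G, and 0.610 and 0.583 at 2G, with 0.994 and 1.61 FPKM under light and 0.617 and 0.777 without. Unc13a, which primes secretory vesicles for release, had 24.8 and 22 FPKM at 11G against 12.7 and 8.93 FPKM at 2G, a log2 change of 1.18 ± 0.15. It was picked for following Npas4 in these same libraries, so this change is a description and no separate test. Socs3 encodes a suppressor of cytokine signalling, Usp35 a deubiquitinase, Aff1 a transcription elongation factor and Pitpnm1 a phosphatidylinositol transfer protein.
The genes most opposite to Npas4 were Dctn4 (r = -0.914), Ctdsp2 (-0.911) and Cat (-0.910). Cat, which encodes catalase, had 4.92 and 6.6 FPKM at 11G against 13 and 11.7 FPKM at 2G. The partners were not close to Npas4: r was 0.38 for Arnt and -0.24 for Arnt2, and 0.46 between Arnt and Arnt2.
Among the genes most like Arnt were Slc25a22, a mitochondrial glutamate carrier (r = 0.963), Atp8b1, a phospholipid flippase (0.929), and Tmtc1 (0.913). Those most like Arnt2 were Tnr, tenascin-R (r = 0.982), Atpaf1, an assembly factor of ATP synthase (0.966), Casc4 (0.965) and Enpp5 (0.962). Tnr had 4.55 and 1.69 FPKM at 11G against 7.57 and 0.820 FPKM at 2G, with the same wide gap between mice at 2G as Arnt2.

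**Figure D5:**
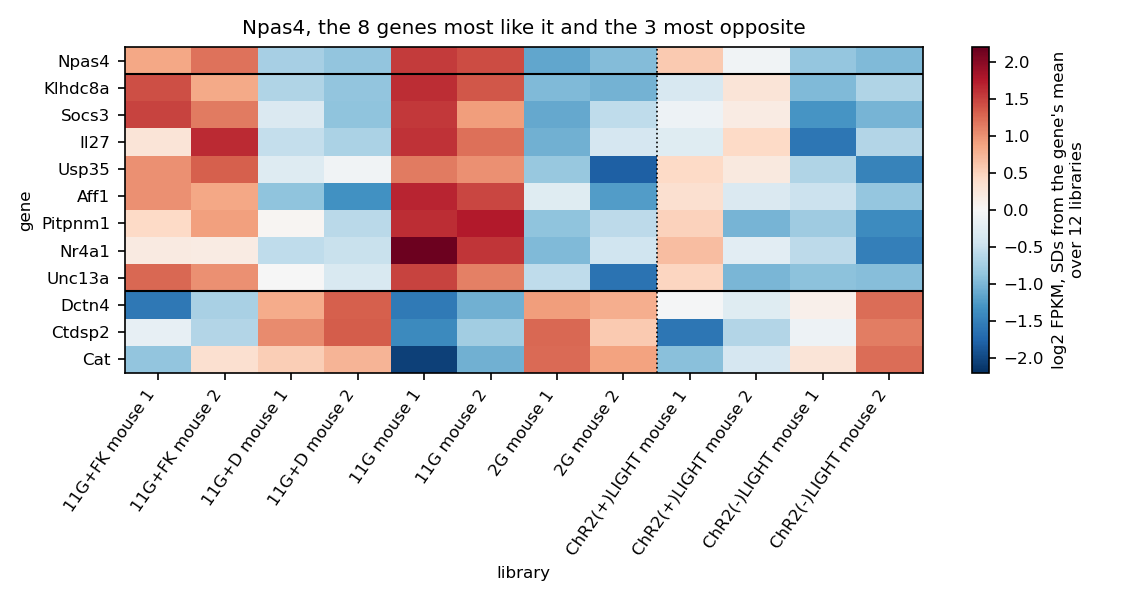
Log2 FPKM of Npas4, the 8 genes most like it and the 3 most opposite to it in each of the 12 libraries, as SDs from each gene's mean over the libraries. The 11G libraries are high for Npas4 and the 8 genes and low for Dctn4, Ctdsp2 and Cat; r with Npas4 runs from 0.882 to 0.932 and from -0.914 to -0.910.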

How the data were processed

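RNA from islets of 2 mice per group was sequenced by a commercial provider, per the labels' protocols. Per the file headers, the authors deposited 8 tables, each with 2 libraries of 1 mouse, with raw read counts, FPKM and rescaled counts (a signal) per gene. They also deposited, per gene, a log2 fold change of 1 library over the other with its p-value, raw and adjusted. No source used here names the test behind these, the aligner, the counter, the strand setting or the build. The deposited FPKM equalled counts over gene length and column total within 0.1%. Each mouse's 11G library was found in 3 tables, with 0 genes differing between them. The counts were joined into 24503 genes, of which 24212 identifiers were found in GENCODE M21.

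The two-sided quasi-likelihood test of edgeR 4.0.16 (R 4.3.3) was run on the raw counts, with TMM normalisation, the mouse number as a block and filterByExpr (count of at least 10, total of at least 15). Wild-type libraries (8; 16087 genes, 3 residual degrees of freedom) and ChR2 libraries (4; 15171 genes, 1 residual degree of freedom) were fitted apart, and the difference between the light and 11G effects was fitted on all 12 (16418 genes, 4 residual degrees of freedom). The 3 genes passed the filter in each fit. P-values were adjusted over all genes by Benjamini-Hochberg, with a threshold of 0.05, and the scripts were tested on simulated data. A standard error is the size of the log2 change over the square root of F. Changes per mouse used log2 CPM with a prior count of 1. Mouse numbers in the labels recur across conditions, and the deviations of same-numbered libraries from their group means correlated by 0.145 to 0.456 in wild type and 0.503 in ChR2. With 2 mice per group the residual degrees of freedom are few, so the p-values rest in part on a spread estimated across genes.

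The 3 genes and all lists were chosen with earlier results of these data known. Named genes were the 3 genes, the 8 most and 3 least correlated with Npas4, the 4 most correlated with each partner, and up to 4 called members of each list per comparison; Hif1a, Ahr and Bdnf were added after their values were seen, as were Syt10 and Rerg. A few results that these rules and lists cover are not reported here. Alternatives were DESeq2 1.42.0, no block, RLE scaling, no filter or a filter of 10 CPM in 2 libraries, 1 fit of all 12 libraries, and leaving out each library.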

Additional observations from a re-analysis of the deposited data

Results flagged for a closer look

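The response of Npas4 to light in ChR2 islets and its response to 11 mM glucose in wild-type islets differed by a test of the difference itself. The log2 change under light minus that at 11G over 2G was -2.99 ± 0.47 (SE; adjusted p = 0.0229, edgeR, 12 libraries; 97 of 16418 genes called). Each response was an increase in 2 of 2 mice, with 2.98 and 1.89 under light, and 5.86 and 5.07 at 11G over 2G. The light lasted 40 min and the glucose 4 h, and the mice differ in genotype.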

How the results depend on the processing

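The replicate block decided several calls. Without the block, the mouse pairing, Arnt at 11G over 2G was 0.76 (adjusted p = 0.240), Npas4 under light 2.63 (0.998) and its light effect minus the 11G effect -2.84 (0.262), none called; no other call of the 3 genes changed. Npas4 at 11G+FK over 11G passed with DESeq2 (-1.07) and without the filter on low counts (-1.07). Of these and the other alternatives that keep all libraries, Npas4 kept direction and call in 42 of 46, Arnt in 41 of 42 and Arnt2 in 42 of 42. With at least 10 CPM in 2 libraries, Npas4 was not tested under light. With all 12 libraries in 1 fit, its light effect was 2.47 (adjusted p = 0.0416). The median Arnt to Arnt2 ratio was 4.64 from CPM over length.

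With each library left out in turn, a lone library is assumed to vary like the others. Under light these fits were made within the fit of all 12 libraries. Dropping either ChR2 library of a mouse left the light effect to the other mouse, so the 4 fits under light are 2 pairs. Npas4 ranged over 5.14 to 5.86 at 11G over 2G, -5.29 to -4.58 at 11G+D over 11G, 3.98 to 4.81 at 11G+FK over 2G and 3.46 to 4.28 at 11G+FK over 11G+D, called in 4 of 4 fits each. It ranged over -1.49 to -0.67 at 11G+FK over 11G, 0.32 to 0.76 at 11G+D over 2G and 1.90 to 2.98 under light, called in 0 of 4 fits each, and over -3.61 to -2.52 for light minus 11G, called in 5 of 8. Arnt at 11G over 2G ranged over 0.62 to 0.86. Arnt under light turned to 0.10 without either ChR2 library of mouse 2 (range -0.42 to 0.10). Arnt2 turned to -0.18 at 11G over 2G without 2G mouse 2 (-0.18 to 0.57), to 0.081 at 11G+D over 11G without 11G+D mouse 1 (-0.62 to 0.081), to 0.31 and 0.27 at 11G+D over 2G without 2G mouse 1 and 11G+D mouse 1 (-0.45 to 0.31), to 0.10 at 11G+FK over 2G without 2G mouse 1 (-0.65 to 0.10), and to 0.15 at 11G+FK over 11G+D without 11G+D mouse 2 (-0.56 to 0.15). The cause was not tested.

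Counts of called genes moved by over 1.5 times as follows. At 11G over 2G, 778 became 68 without the block, 1315 with DESeq2, 1672 without the filter and 42 to 1405 with a library left out. At 11G+D over 11G, 610 became 59 without the block, 1085 without the filter and 45 to 765 with a library left out. At 11G+FK over 11G, 37 became 1 without the block, 234 with DESeq2, 309 without the filter, 58 with 12 libraries and 0 to 11 with a library left out (edgeR; 613 at an unadjusted p under 0.05 where it was 0). At 11G+D over 2G, 840 became 10 without the block, 1573 without the filter and 246 to 1140 with a library left out. At 11G+FK over 2G, 332 became 5 without the block, 769 with DESeq2, 992 without the filter, 184 at 10 CPM and 4 to 162 with a library left out. At 11G+FK over 11G+D, 188 became 5 without the block, 493 with DESeq2, 617 without the filter and 3 to 486 with a library left out. Under light, 128 became 0 without the block (edgeR; 654 at an unadjusted p under 0.05; 86 by DESeq2 with the block), 419 without the filter, 6 with 12 libraries and 0 to 29 with a library left out. For light minus 11G, 97 became 2 without the block, 426 with DESeq2, 659 without the filter and 4 to 212 with a library left out.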

Other observations

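Syt10, a synaptotagmin gene described as an NPAS4 target in neurons, had 4.55 FPKM under light and 4.21 FPKM without light in ChR2 mouse 1. It was at 0 reads in both libraries of ChR2 mouse 2 and in all 8 wild-type libraries. The gene was singled out after its values were seen. The higher count was 176 reads, and the log2 change in mouse 1 was 0.07, so the reads came from both libraries of 1 mouse, with and without light. Rerg, of the same list and singled out in the same way, had 11.4 FPKM under light and 8.0 FPKM without in ChR2 mouse 1, and 0.926 and 0.652 FPKM in ChR2 mouse 2. The origin of these reads was not tested, so these values are not read as levels of an NPAS4 response.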
